A study of Mus musculus with 24 samples.

Results

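Oligomycin was added to oleic acid in cells without doxycycline, and the 4 libraries with both agents (OOA) were compared with the 4 libraries with oleic acid alone (OA), which made 8 of the 24 libraries of the study. All cells were C2C12, a line of mouse myoblasts, the muscle precursors that fuse into myotubes, and all carried a lentiviral vector from which doxycycline induces uncoupling protein 1 (UCP1). In the compared groups that vector was present and doxycycline was replaced by an equal volume of water. OA cells received 300 µM oleic acid and OOA cells 300 µM oleic acid with 1 µM oligomycin, 24 h after the water and for 16 h, in a serum medium with pyruvate. How much BSA came with the oleic acid is not given. The remaining groups, named here only for their levels, were BSA (51 µM bovine serum albumin, water) and Dox_BSA, Dox_OA and Dox_OOA, which had the same treatments with doxycycline. Whether the line is 1 clone, and whether each library had its own culture, is not given in the labels, so p-values measure the spread between these libraries, which may be technical.

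Oligomycin binds the membrane part of mitochondrial ATP synthase and blocks the proton flow that drives ATP synthesis. Cells with a blocked ATP synthase rely on glycolysis for ATP, and the inner membrane tends to hyperpolarise while respiration slows. The transcription factor ATF4 is known to relay mitochondrial faults to the nucleus. Lists of its targets (70 measured genes) and of cell cycle genes (208) are set aside here, and the other programmes are described. Neither list is complete. Genes outside the ATF4 list may still depend on ATF4, which was not tested.

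Each library held 20370651 to 29410667 reads in the compared groups. No pair of libraries within a group differed by as little as sampling noise gives, with a chi-square per gene of 5.49 to 11.9. Values are FPKM, read fragments scaled to gene length and library size. The 12904 genes that reached 1 FPKM in 4 or more of the 24 libraries were tested with limma on log2(FPKM + 1). A log2 change is OOA minus OA on that scale, is given with its standard error (SE) after ±, and is compressed for genes with low values. A gene is said to have risen or fallen where its limma adjusted p was under 0.05. FPKM values are relative to the RNA of a library, and in bulk RNA fewer cells of a kind and less RNA per cell cannot be told apart. Muscle markers were present, with group means from OA to OOA of 38.6 to 25.5 FPKM for the muscle regulator Myod1 and 42.9 to 43.7 FPKM for the filament gene Des. Of 39 listed myogenic regulators and fusion genes 9 were below the filter, and of 55 sarcomere genes 27. All 19 endothelial markers were below the filter, as were 35 of 41 neuronal, 32 of 40 epithelial, 16 of 20 leukocyte and 12 of 16 adipocyte markers.

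Of the 12904 genes tested 56.9% changed, 28.5% higher and 28.4% lower, and 52.7% had OA and OOA libraries that did not overlap. Outside the ATF4 and cell cycle lists 7062 genes changed, 3604 higher and 3458 lower. A change of at least 2-fold on the log2(FPKM + 1) scale was found for 5.77% of the genes tested, 2.77% higher and 3% lower. Outside those lists 306 genes rose and 221 fell by at least 2-fold, and 38 rose and 6 fell by at least 4-fold. The median log2 change over all genes tested was 0.01. Since most of the genes tested moved, a list is described by how many of its measured members rose or fell, read against 28.5% and 28.4%. Members of ribosome, p53 and clock lists mostly rose, and members of tubulin, sarcomere, endoplasmic reticulum and proteasome lists mostly fell, with counts given under each.

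**Figure D1:**
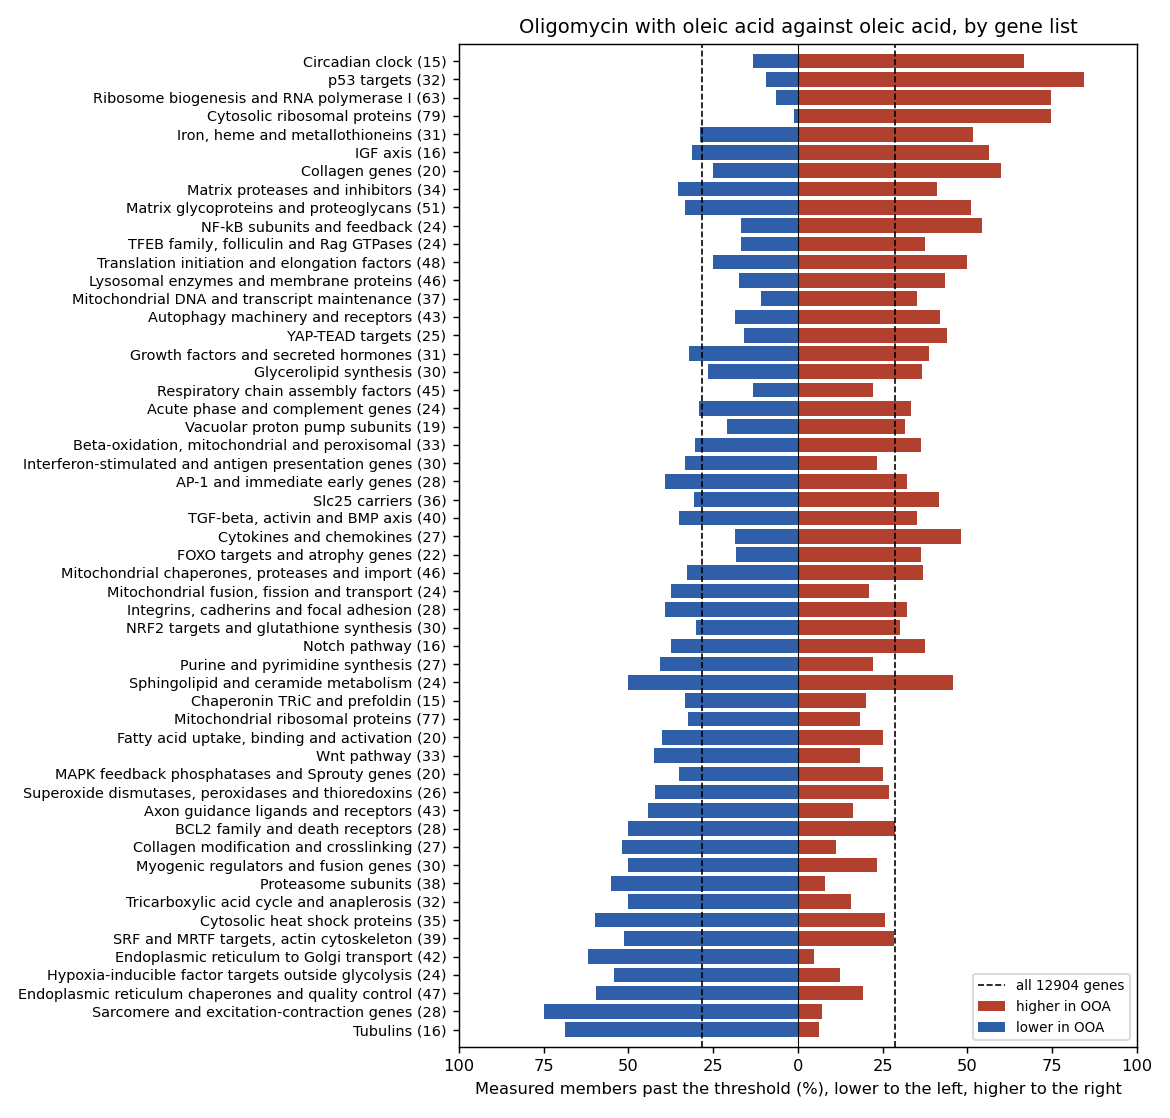
Share of the measured members (in %) that rose (right, red) or fell (left, blue) in OOA against OA for the 54 gene lists with at least 15 measured members, ordered by median log2 change, with the number of members in parentheses. Dashed lines mark the shares over all 12904 genes tested, 28.5% higher and 28.4% lower. Circadian, p53 and ribosome lists stand at the top, and tubulin, sarcomere and endoplasmic reticulum lists at the bottom.

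Several of the largest rises outside those lists were of genes that handle fatty acids, electrons, glycogen or calcium. Acot2 (ENSMUSG00000021226, chromosome 12, 84034635 to 84040647, plus strand, GRCm39), which encodes a mitochondrial acyl-CoA thioesterase that frees fatty acids from coenzyme A, stood at 3.29, 4.16, 3.9001 and 5.07 FPKM in the OA libraries and 54.6, 53.4, 54.5 and 59.1 FPKM in the OOA libraries. It rose by 3.48 ± 0.16 (limma adjusted p = 4.24e-14), with no overlap between the groups, while its near-identical neighbour Acot1 did not pass (0.02 log2). Reads of such copies may be split in ways the files do not show.

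Cyb5r1 (ENSMUSG00000026456, chromosome 1, 134333297 to 134339478, plus strand) encodes a membrane-bound NADH-cytochrome b5 reductase. Its values were 11.1, 10.9, 10.3 and 11.1 FPKM in the OA libraries and 88.9, 99.6, 105 and 102 FPKM in the OOA libraries, a change of 3.07 ± 0.05 (limma adjusted p = 4.05e-22). The lowest OOA library lay far above the highest OA library. Stbd1 (ENSMUSG00000047963, chromosome 5, 92750900 to 92754438, plus strand), whose product binds glycogen and anchors it to membranes, was at 13.6, 14.9, 11.5 and 13.2 FPKM in the OA libraries and 101, 98.6, 92.5 and 91.9 FPKM in the OOA libraries (log2 change 2.77 ± 0.09). Atp2a3, a calcium pump of the endoplasmic reticulum, was near 0 in OA and rose from 0.0688 ± 0.0215 to 4.68 ± 0.4404 FPKM (SD, n = 4).

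Receptor and ligand genes were also among the 20 largest rises. The lysophosphatidic acid receptor gene Lpar4 stood at 18.2, 18.998, 16.7 and 18.2 FPKM in the OA libraries and 103, 83.8, 96.96 and 95.7 FPKM in the OOA libraries, the groups well apart, and rose by 2.33 ± 0.06. Scara5, a scavenger receptor that takes up ferritin, rose from 6.96 ± 0.767 to 39.4 ± 1.59 FPKM (SD, n = 4; 2.35 ± 0.07). The invariant chain gene Cd74, known for antigen presentation and as a receptor of the cytokine MIF, rose from 15.5 ± 0.361 to 90.9 ± 3.17 FPKM (SD, n = 4; 2.48 ± 0.08). Rtl3, a retrotransposon-derived gene on the X chromosome, rose by 2.30 ± 0.07.

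Some rises started from almost nothing. Avil, which encodes the actin-binding protein advillin of sensory neurons, was at 0.0501, 0.143, 0.0473 and 0.0491 FPKM in the OA libraries and 17.5, 18.4, 22.96 and 20.5 FPKM in the OOA libraries (log2 change 4.27 ± 0.10). Pdzd7, a scaffold gene of inner ear hair cells, was at 0.202, 0.3304, 0.228 and 0.288 FPKM in the OA libraries and 8.73, 8.46, 11.6 and 11.2 FPKM in the OOA libraries (log2 change 3.11 ± 0.10). Every OOA library exceeded every OA library for both. Avil overlaps Tsfm on the opposite strand, whose mean went from 11.05 to 10.7 FPKM, and Pdzd7 overlaps Lzts2, which averaged 31.1 and 43.3 FPKM. Whether counting used strand is not given, so reads of such partners cannot be told apart.

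Promoter sequences were searched for the element TGATGNAA, on both strands, because ATF4 with its partners binds elements of this form. RefSeq windows on GRCm38.p6 (250 bases before to 50 after each start) were used. It was in 4.51% of all promoters, in 2.56% of the 8956 tested genes that had an entry, in 33.3% of the 57 ATF4 and CHOP list genes that had a promoter entry, in 12.5% of the 16 matched among the 20 largest rises outside that list, and in 0 of the 17 matched among the 20 largest falls. The matches among the rises were Avil and Pdzd7, shown here on the gene's strand with the element in capitals.
Avil (chr10:127000609-127000708, plus strand): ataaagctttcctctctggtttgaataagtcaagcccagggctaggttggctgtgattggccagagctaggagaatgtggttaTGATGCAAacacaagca
Pdzd7 (chr19:45045819-45045918, minus strand): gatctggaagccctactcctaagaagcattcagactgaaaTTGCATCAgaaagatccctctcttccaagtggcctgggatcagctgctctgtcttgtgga
The element lay 17 to 10 bases before the annotated start of Avil, and 106 to 99 bases before that of Pdzd7, where it reads on the opposite strand. A match describes letters and is not a bound site.

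The 20 largest falls outside the ATF4 and cell cycle lists mixed muscle, adhesion and surface genes with division genes that the cell cycle list does not hold. The largest was in Sprr1a (-2.62 ± 0.17), a gene of the outer skin layer. The muscle genes among them were cardiac actin, Actc1 (-2.19), embryonic myosin, Myh3 (-1.81), and the myosin-binding Mybph (-1.76). Another was the adipocyte and muscle gene Car3 (-1.75). Plau (ENSMUSG00000021822, chromosome 14, 20886728 to 20893453, plus strand), the urokinase plasminogen activator, stood at 12.98, 14.1, 12.6 and 15.7 FPKM in the OA libraries and 2.29, 3.595, 3.46 and 3.23 FPKM in the OOA libraries, with no overlap, and fell by 1.85 on the log2 scale (SE 0.11, limma adjusted p = 7.06e-13). Cdhr1, a cadherin-related gene best known from photoreceptors, fell from 50.2 ± 1.32 to 13.7 ± 2.09 FPKM (SD, n = 4), and Tm4sf1, a surface protein of migrating cells, from 72.4 ± 2.18 to 20.3 ± 1.29 FPKM (SD, n = 4). Ulbp1, a ligand of the natural killer cell receptor NKG2D, had a log2 change of -2.23 ± 0.07, and Efnb2, the ephrin-B2 ligand, of -1.65 ± 0.06. Genes of the spindle, kinetochore and cell division made up several of the rest, among them Knstrn (-1.89), Cep55 (-1.79), Spdl1 (-1.69), Tedc1 (-1.71) and the cell cycle inhibitor genes Cdkn3 (-1.76) and Cdkn2c (-1.72).

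**Figure D2:**
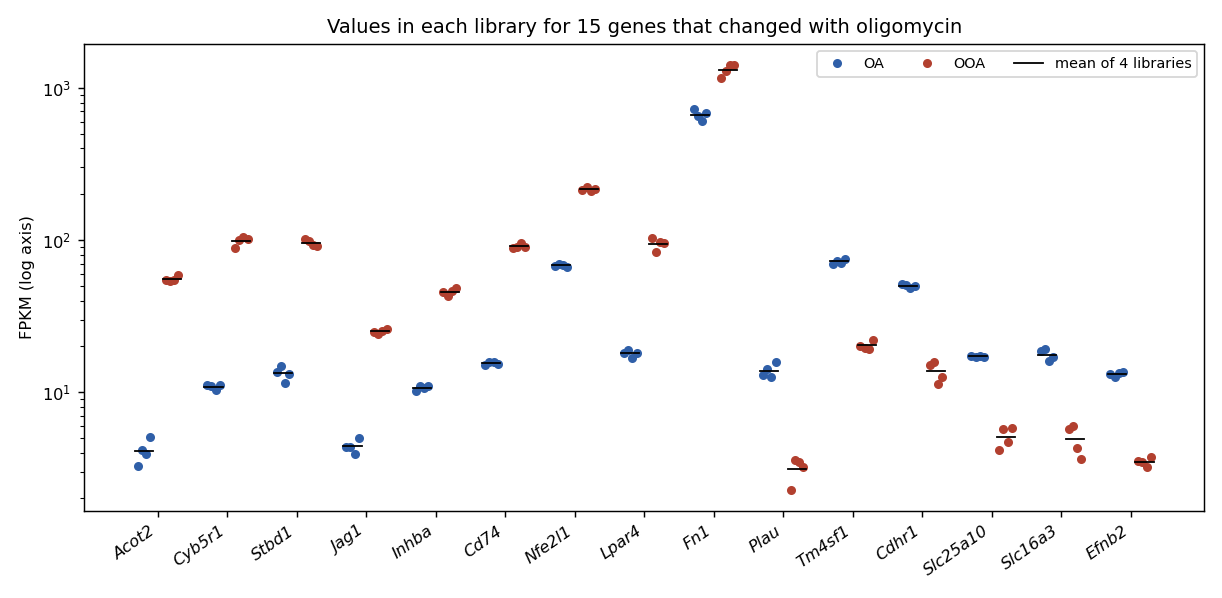
FPKM (log axis) of 15 genes in each OA (blue) and OOA (red) library, with bars at the mean of 4 libraries. The groups do not overlap for any gene shown. Acot2 sits between 3.29 and 5.07 FPKM in OA and between 53.4 and 59.1 FPKM in OOA, and Plau between 12.6 and 15.7 FPKM in OA and between 2.29 and 3.60 FPKM in OOA.

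Genes of protein synthesis were higher in OOA. Ribosome biogenesis, the nucleolar making of ribosomal RNA and its assembly with proteins, had 47 of 63 members higher and 4 lower, with a median log2 change of 0.28. Nop14, a factor of small subunit maturation, stood at 18.2, 17.1, 19.9 and 18.9 FPKM in the OA libraries and 34.5, 34.6, 36.7 and 37.2 FPKM in the OOA libraries (log2 change 0.91 ± 0.06). Its groups did not overlap. Mybbp1a rose from 57.3 to 85.2 FPKM, Utp14a by 0.80, Imp3 by 0.79, Noc2l by 0.63, and Tcof1, the treacle gene of ribosomal DNA transcription, by 0.58. The polymerase I subunit gene Polr1a rose by 0.38 and nucleolin, Ncl, by 0.32. The 4 that fell were Polr1d (-0.43), Utp6 (-0.31), Nop10 (-0.25) and Nolc1 (-0.21), which were named after their values were seen. Nop10 did not pass without OA replicate 2 (-0.22), OA replicate 3 (-0.22), OOA replicate 1 (-0.24) or OOA replicate 4 (-0.17).

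Of 79 measured ribosomal protein genes 59 rose, 1 fell and 19 did not pass, with a median of 0.27. The fall was in Rpl7l1 (-0.16), a factor of large subunit assembly rather than a constitutive ribosomal protein. Rps27 (0.76), Rpl12 (0.63), Rps12 (0.55) and Rpl4 (0.50) rose most firmly or most. Many of these genes have near-identical pseudogene copies, so their single values are uncertain. Rpl4 stood at 581, 579.6, 585 and 623 FPKM in the OA libraries and 870.3, 815, 840.4 and 824 FPKM in the OOA libraries, with all OOA libraries above all OA libraries.

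Among 48 translation factor genes 24 rose and 12 fell. The elongation factor genes gave the largest gains in FPKM of any genes outside the set-aside lists. Eef1a1, which brings aminoacyl-tRNA to the ribosome, averaged 3214 ± 83.7 to 4303 ± 137 FPKM (SD, n = 4; log2 change 0.42 ± 0.04), and Eef2, which moves the ribosome along, 1108 ± 34.03 to 1759 ± 21.2 FPKM (0.67 ± 0.03). Subunits of initiation factor 3 rose in part, with Eif3c from 107 to 230.2 FPKM (log2 change 1.09 ± 0.04) and Eif3e by 0.49, while Eif3b fell by 0.25. The cap-complex scaffold gene Eif4g1 had -0.47 and Eif4ebp2, which encodes an inhibitor of cap binding, -0.77. Host genes of small nucleolar RNAs led the long noncoding RNAs that rose, as described further on.

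Genes of the secretory pathway moved the other way. Of 47 measured genes of endoplasmic reticulum folding and quality control 28 fell and 9 rose (median -0.31), and of 42 genes of transport to the Golgi 26 fell and 2 rose (median -0.24; 4 rose without OA replicate 4). The unfolded protein response normally raises such chaperones through the sensors ATF6 and IRE1, the latter encoded by Ern1, while the third sensor, PERK, acts through ATF4.

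P4hb (ENSMUSG00000025130, chromosome 11, 120451124 to 120464079, minus strand), the protein disulfide isomerase that is also a prolyl hydroxylase subunit, stood at 719.7, 723, 688 and 659 FPKM in the OA libraries and 384, 373, 337 and 346 FPKM in the OOA libraries, a change of -0.95 ± 0.05 (limma adjusted p = 9.38e-14). No OOA library reached the OA range. The calcium-binding chaperone gene Calr stood at 634, 657, 627 and 634 FPKM in the OA libraries and 411, 395, 394 and 378 FPKM in the OOA libraries (-0.69 ± 0.05), again without overlap. Hsp90b1 fell from 237 to 140.4 FPKM, Pdia6 from 93.5 to 52.6 FPKM, Pdia3 from 269 to 164 FPKM, and the secreted stress proteins Creld2 and Manf from 45.7 to 19.2 FPKM and 28.4 to 12.6 FPKM. Sdf2l1, a cofactor of the chaperone BiP, fell most (log2 change -1.40 ± 0.15).

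BiP itself was among the exceptions. Hspa5, its gene, stood at 240.4, 252, 228 and 232 FPKM in the OA libraries and 375, 349.8, 363 and 373 FPKM in the OOA libraries and rose by 0.62 ± 0.04 (limma adjusted p = 1.85e-12), every OOA library above every OA library. The sensors rose too, Atf6 from 25.6 to 48.1 FPKM (0.88 ± 0.04) and Ern1 from 10.1 to 19.6 FPKM (0.89 ± 0.08), as did Derl1 of the retrotranslocation channel (0.73 ± 0.04), and Xbp1, the IRE1 target, rose by 0.18. The other rises were in Sel1l (0.31), Edem1 (0.20), Atf6b (0.16) and Hyou1 (0.10). Atf6b did not pass when any 1 of the 8 libraries was left out (0.15 to 0.17), and Hyou1 did not without OA replicate 1 (0.08), OA replicate 3 (0.09) or OOA replicate 3 (0.10). The sensor and exception genes were singled out after their values were seen.

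Several of these genes share a promoter element, so the direction of change can be set beside the sequence. The endoplasmic reticulum stress element, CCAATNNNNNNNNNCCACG, was searched on both strands. It was in 0.137% of all 27025 genes with a promoter entry, in 0.179% of the 8956 of them that were tested and in 23.1% of the 39 list members that had an entry, 9 genes. Of these 9, Creld2, Pdia6, Hsp90b1, Calr and Dnajc3 (-0.47) fell, Hspa5 rose, and Canx (-0.08), Syvn1 (-0.06) and Ero1b (0.01) did not pass, although Canx did without OOA replicate 1 (-0.12). The stretch around the element, in capitals, is shown for the gene that rose and for 3 that fell.
Hspa5 (chr2:34771985-34772084, plus strand): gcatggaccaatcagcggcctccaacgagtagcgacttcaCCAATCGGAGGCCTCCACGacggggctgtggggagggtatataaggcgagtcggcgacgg
Pdia6 (chr12:17266451-17266550, plus strand): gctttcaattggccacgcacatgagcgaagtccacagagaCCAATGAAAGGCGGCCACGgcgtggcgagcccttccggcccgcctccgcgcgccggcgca
Creld2 (chr15:88819480-88819579, plus strand): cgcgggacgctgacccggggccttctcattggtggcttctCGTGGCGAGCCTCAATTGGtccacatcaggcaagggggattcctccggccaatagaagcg
Calr (chr8:84847034-84847133, minus strand): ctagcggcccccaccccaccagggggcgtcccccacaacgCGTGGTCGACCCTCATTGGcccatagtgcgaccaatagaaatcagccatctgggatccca
Coordinates are of GRCm38.p6 and the sequences are RefSeq's. The element lies 65 to 47 bases before the start of Hspa5, 98 to 80 before that of Pdia6, 126 to 108 before that of Creld2 and 162 to 144 before that of Calr, and reads on the opposite strand in the last 2. Genes that hold the same letters moved in both directions.

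**Figure D3:**
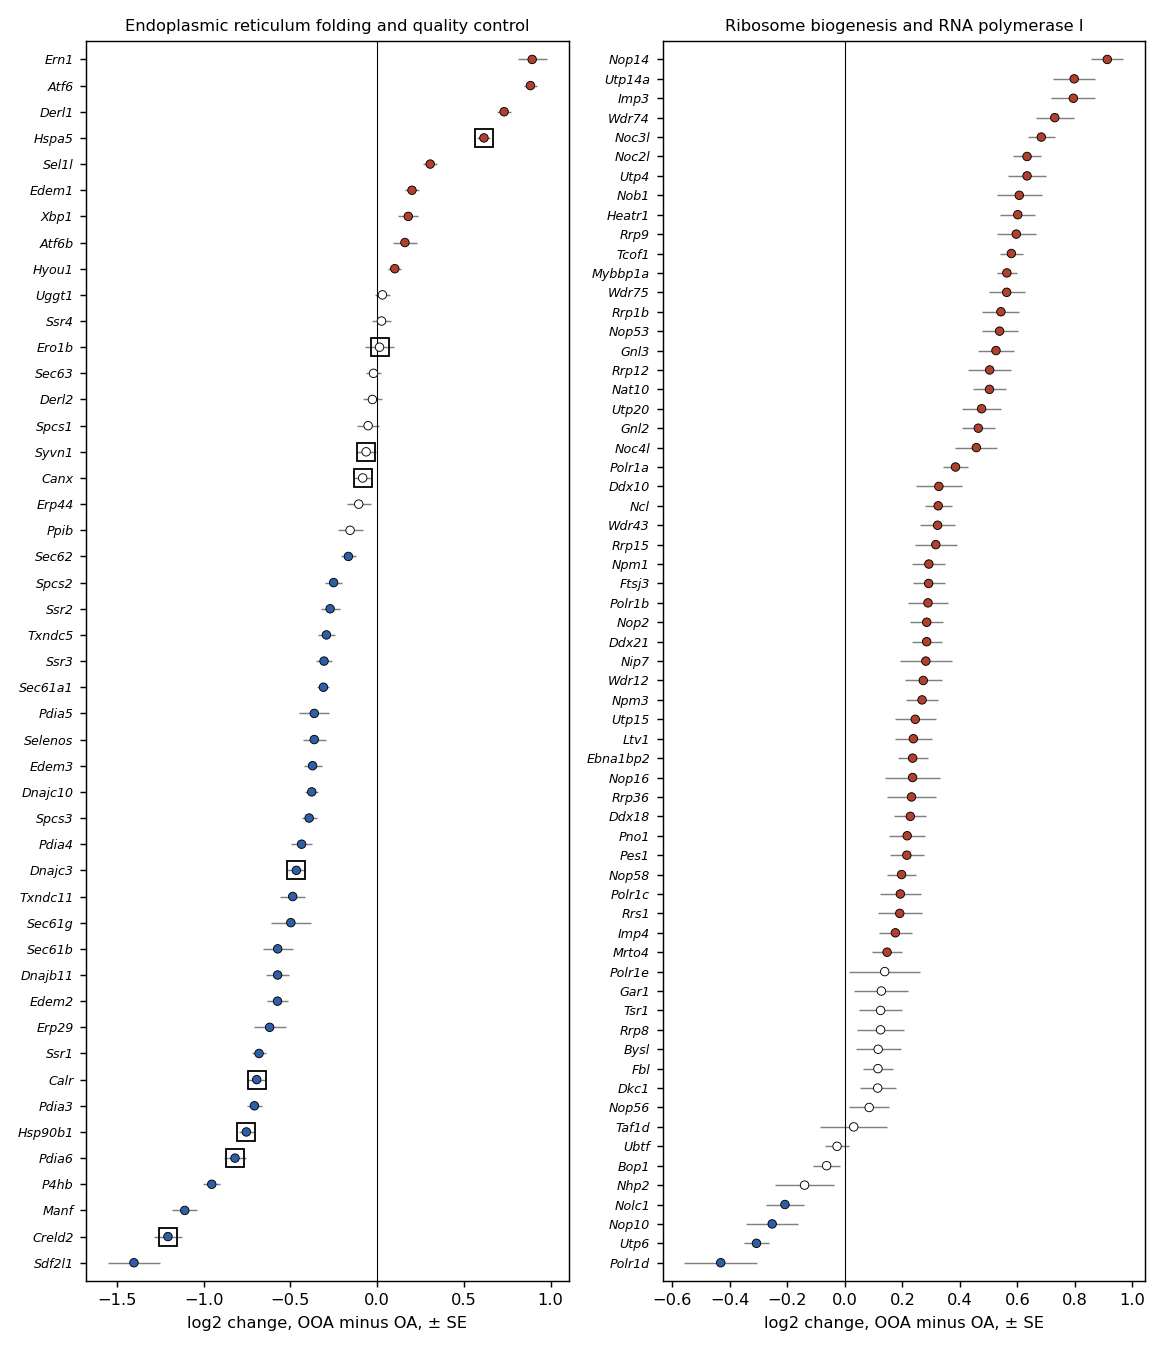
Log2 change (OOA minus OA, ± SE) of each measured member of the endoplasmic reticulum list (left) and the ribosome biogenesis list (right), filled red where it rose, blue where it fell and white where it did not pass. Squares mark the 9 genes whose promoter holds the stress element. Hspa5 is at 0.62 and Creld2 at -1.21.

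In the coat and cargo machinery, the retrieval receptor genes Kdelr3 (-0.75 ± 0.05) and Kdelr2 (-0.52), the COPII gene Sec24d (-0.53), the COPI gene Copb2 (-0.58) and the cargo receptor gene Surf4 (-0.51) fell. The rises were in Mia2 (0.77), which helps load large cargo, and Mcfd2 (0.29). Collagen modification followed in part, with 14 of 27 lower and 3 higher. Lox, which crosslinks collagen, fell from 606 to 403 FPKM and the procollagen enhancer Pcolce from 213 to 135 FPKM, while the collagen chaperone Serpinh1 rose from 538 to 616 FPKM.

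Cytosolic chaperones were more often lower, 21 of 35 lower and 9 higher (median -0.19). Hspa8, the constitutive HSP70, stood at 303, 294, 273 and 287 FPKM in the OA libraries and 183, 167, 166 and 161 FPKM in the OOA libraries (-0.77 ± 0.06), the groups apart. Hsp90aa1 fell from 297 to 189.98 FPKM, Dnaja1 from 25.6 to 14.4 FPKM, Dnajb1 from 50.03 to 28.3 FPKM and the inducible Hspa1b from 12.9 to 4.91 FPKM. The master regulator gene Hsf1 rose by 0.45. Proteasome subunits had 21 of 38 lower and 3 higher, with small changes such as Psmd13 (-0.57), Psmc3 (-0.52) and Psmd2 (-0.38). Nfe2l1, which encodes the transcription factor that drives proteasome genes, rose at the same time: it stood at 67.6, 69.7, 68.4 and 66.7 FPKM in the OA libraries and 215, 224, 211 and 216 FPKM in the OOA libraries (log2 change 1.65 ± 0.04, limma adjusted p = 3.77e-19), and its groups were far apart.

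Lysosome and autophagy lists leaned upward. Of 46 lysosomal genes 20 rose and 8 fell, and of 43 autophagy genes 18 rose and 8 fell. The protease gene Ctsl rose from 31.9 to 79.1 FPKM (1.29 ± 0.07) and the cholesterol exporter gene Npc1 from 4.94 to 13.1 FPKM (1.25 ± 0.06). Sqstm1, the cargo receptor p62, stood at 99.2, 105, 103 and 104 FPKM in the OA libraries and 343, 342, 336 and 338 FPKM in the OOA libraries and rose by 1.72 ± 0.03 without overlap. The mitophagy receptor genes Bnip3 and Bnip3l, which are also targets of hypoxia-inducible factors, fell from 59.7 to 31.8 FPKM and 33.5 to 24.8 FPKM. Tfe3 rose by 0.42, Tfeb did not pass (-0.01 ± 0.09), and Castor2, a relative of the arginine sensor of mTORC1, fell from 11.1 to 5.07 FPKM.

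Mitochondrial quality control genes split. Of 46 chaperone, protease and import genes 17 rose and 15 fell, shares of 37.0% and 32.6% that are not far from those of all genes. The large changes were few and upward. Hspa9, the matrix HSP70 called mortalin, stood at 146, 149.7, 152 and 162 FPKM in the OA libraries and 398, 363, 383 and 376 FPKM in the OOA libraries (1.31 ± 0.04, limma adjusted p = 1.64e-18). Its cofactor gene Dnaja3 stood at 13.7, 13.97, 12.9 and 11.7 FPKM in the OA libraries and 32.99, 34.1, 32.6 and 32.99 FPKM in the OOA libraries (1.28 ± 0.06). Both pairs of groups were well separated. Chchd10 of the intermembrane space rose from 0.767 ± 0.371 to 4.28 ± 0.479 FPKM (SD, n = 4), and the protease subunit gene Clpp by 0.42. By contrast Hspd1 (0.12 ± 0.06) and Hspe1 (0.07 ± 0.07), which encode the matrix chaperonin HSP60 and HSP10, did not pass, and import genes such as Tomm22 (-0.40) and Tomm40 (-0.31) fell slightly.

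Mitochondrial ribosomal protein genes had no common direction: 14 of 77 rose, 25 fell and 38 did not pass, with a median of -0.05. Mrpl18 fell from 26.4 to 11.5 FPKM and Mrpl24 rose from 12.4 to 20.3 FPKM. Of 37 genes that maintain mitochondrial DNA and its transcripts 13 rose and 4 fell. The rises included the mitochondrial topoisomerase gene Top1mt (0.71), the transcript-stabilising Lrpprc (0.63 ± 0.05) and the poly(A) polymerase gene Mtpap (0.56). Of 45 assembly factor genes 29 did not pass, and those that rose included the copper chaperone gene Cox17 (0.80), Cox18 (0.65) and Surf1 (0.63).

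Carriers of the inner membrane moved in both directions, 15 of 36 higher and 11 lower. Slc25a10 (ENSMUSG00000025792, chromosome 11, 120382666 to 120390013, plus strand), which exchanges malate and succinate for phosphate, stood at 17.3, 17.1, 17.3 and 17.1 FPKM in the OA libraries and 4.17, 5.71, 4.73 and 5.84 FPKM in the OOA libraries. That was a change of -1.58 ± 0.08 (limma adjusted p = 6.96e-14), with no overlap. Slc25a37, the iron importer mitoferrin 1, stood at 20.99, 17.9, 23.4 and 21.9 FPKM in the OA libraries and 47.6, 52.8, 56.9 and 56.3 FPKM in the OOA libraries (1.31 ± 0.11), and Slc25a39, the glutathione carrier, rose from 47.5 to 83.9 FPKM. Both abundant adenine nucleotide translocases fell, Slc25a4 by 0.38 and Slc25a5 by 0.42 on the log2 scale, and the calcium-regulated ATP-magnesium carrier Slc25a24 fell from 34.6 to 19.8 FPKM.

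In the tricarboxylic acid cycle and its feeder reactions 16 of 32 genes fell and 5 rose (median -0.19; 17 and 3 after scaling each library to the same FPKM sum). The NADP-linked isocitrate dehydrogenase genes Idh2 and Idh1 fell from 72.7 to 41.8 FPKM and 31.7 to 19.5 FPKM. The malate dehydrogenase gene Mdh1 (-0.68 ± 0.05), the malic enzyme Me2 (-0.65) and the succinate dehydrogenase subunit Sdhd (-0.59) were also lower. Pyruvate carboxylase, Pcx, which feeds oxaloacetate into the cycle, rose by 0.33, as did Dld (0.28). At the entry to the cycle the pyruvate dehydrogenase kinase genes Pdk1 (-0.69 ± 0.06) and Pdk3 (-0.47) fell and Pdk4 rose (0.43 ± 0.07), while the catalytic subunits Pdha1 (-0.02) and Pdhb (0.04) did not pass.

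Slc16a3 (ENSMUSG00000025161, chromosome 11, 120839306 to 120851694, plus strand), the lactate exporter MCT4, stood at 18.6, 19.1, 15.9 and 17.1 FPKM in the OA libraries and 5.71, 6.001, 4.32 and 3.62 FPKM in the OOA libraries and fell by 1.68 on the log2 scale (SE 0.14, limma adjusted p = 8.29e-10), all OOA libraries below all OA libraries. The related carrier gene Slc16a1, MCT1, rose slightly (0.24 ± 0.04), and the glucose carrier gene Slc2a1 did not pass (-0.02 ± 0.09). Slc16a3 overlaps Csnk1d on the opposite strand, which averaged 44.2 and 39.8 FPKM. Targets of hypoxia-inducible factors outside glycolysis had 13 of 24 lower and 3 higher (median -0.28; -0.43 with limma-voom on recovered reads). The oxygen-sensing prolyl hydroxylase genes Egln3 (-0.999 ± 0.09) and Egln1 (-0.79 ± 0.08), the carbonic anhydrase gene Car9 (-0.73) and Higd1a (-0.72) fell. The rises were in Hif1a itself (0.41), Rora (0.54) and the angiogenic factor Vegfa (from 35.1 to 107 FPKM). Of 9 pentose phosphate genes 4 rose, Tkt most (0.57 ± 0.07), and 5 did not pass.

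Lipid genes showed no common direction, with single large changes. Of 33 beta-oxidation genes 12 rose and 10 fell. The carnitine acyltransferase gene Cpt1a fell by 0.34 and Acadm by 0.48, and Acaa1a rose by 0.55 and Hadh by 0.45. In lipid storage, G0s2, which encodes an inhibitor of the lipase ATGL, stood at 5.95, 5.73, 4.62 and 4.98 FPKM in the OA libraries and 20.5, 21.5, 21.6 and 17.98 FPKM in the OOA libraries (1.76 ± 0.17), with no overlap, and the lipase gene itself, Pnpla2, rose from 11.7 to 21.9 FPKM (0.85 ± 0.09). Glycerolipid synthesis had 11 of 30 genes higher and 8 lower. The acyltransferases Gpat3 (from 0.86997 to 4.24 FPKM) and Dgat2 (from 2.68 to 8.13 FPKM) and the choline kinase gene Chka (from 2.57 to 7.47 FPKM) rose at least 2-fold, while Pcyt1a, the rate-limiting enzyme of phosphatidylcholine synthesis, fell (-0.65 ± 0.05).

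Of 20 genes of fatty acid uptake, binding and activation 8 fell and 5 rose. The acyl-CoA-binding protein gene Dbi fell from 26.4 to 13.2 FPKM, Fabp5 from 9.73 to 5.79 FPKM and Acsl3 from 34.4 to 24.5 FPKM, whereas Acsl4, which activates arachidonic acid, rose from 17.9 to 28.1 FPKM. Nearly all measured sphingolipid genes changed, 11 up and 12 down of 24. Serine palmitoyltransferase, the first step, was lower (Sptlc2 -0.43, Sptlc1 -0.27), and the ceramide synthases Cers6 (0.62) and Cers2 (0.57) and the sphingosine 1-phosphate receptor gene S1pr1 (0.77) were higher.

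Redox genes did not move as a block. NRF2 targets had 9 of 30 higher and 9 lower, close to the shares of all genes. Gsta4, a glutathione transferase for the lipid peroxidation product hydroxynonenal, stood at 9.66, 10.8, 8.64 and 8.598 FPKM in the OA libraries and 48.5, 43.5, 50.3 and 51.1 FPKM in the OOA libraries (2.25 ± 0.12, limma adjusted p = 4.88e-13), without overlap. Ptgr1 (-1.01 ± 0.06), Txn1 (-0.59 ± 0.07) and Prdx1 (-0.59 ± 0.05) fell, and the sentinel target Nqo1 did not pass (-0.09 ± 0.09; -0.19 and past the threshold without OOA replicate 1). Among peroxidase and thioredoxin genes, Prdx4 of the endoplasmic reticulum fell from 49.9 to 25.9 FPKM, and Txnrd3 (0.94), Selenow (0.72) and Prdx6 (0.63) rose.

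Of 31 iron and heme genes 16 rose and 9 fell (median 0.21), and with an FPKM minimum of 5 these were 13 and 10 of 27 (median 0.07). The transferrin receptor gene Tfrc, which brings iron into cells, stood at 34.1, 34.9, 33.2 and 33.5 FPKM in the OA libraries and 18.1, 16.8, 13.97 and 15.2 FPKM in the OOA libraries (-1.04 ± 0.06). The ferritin heavy chain gene Fth1, which stores it, stood at 368, 380.1, 369 and 376 FPKM in the OA libraries and 607, 599.9, 606 and 569 FPKM in the OOA libraries (0.67 ± 0.04). Neither gene had overlapping groups. Cpox of heme synthesis rose from 6.59 to 18.9 FPKM and the reductase gene Steap1 from 32.9 to 65.9 FPKM, and the metallothionein gene Mt1 fell from 445 to 283 FPKM.

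The p53 protein stops growth and starts repair or death after DNA damage and other stress. Outside the genes shared with the set-aside lists, 27 of 32 p53 targets rose and 3 fell, with a median of 0.55. Ribonucleotide reductase for DNA repair, Rrm2b, stood at 3.55, 3.28, 2.93 and 3.14 FPKM in the OA libraries and 11.9, 10.3, 10.8 and 11.4 FPKM in the OOA libraries (1.52 ± 0.06). The polo-like kinase gene Plk3 stood at 4.46, 5.52, 6.59 and 6.89 FPKM in the OA libraries and 19.8, 18.6, 25.7 and 22.6 FPKM in the OOA libraries (1.73 ± 0.13). Both had separate groups. Zmat3, an RNA-binding p53 target, rose from 4.42 to 12.5 FPKM, Btg2 from 4.21 to 11.9 FPKM, Plk2 from 22.2 to 51.3 FPKM, the p53 antagonist gene Mdm2 from 12.8 to 21.5 FPKM and the apoptosis gene Bax from 32.995 to 53.99 FPKM. The falls were in Sulf2 (-0.60), Sesn1 (-0.44) and Pidd1 (-0.34). Trp53 itself changed by 0.26 ± 0.05. Across the BCL2 family, caspases and death receptors 14 of 28 genes fell, such as Mcl1 (-0.41) and the receptor gene Tnfrsf12a (-0.75 ± 0.10), and 8 rose, with the death receptor gene Tnfrsf21 highest (1.14 ± 0.08).

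Transcription factors rose more often than they fell, 287 of 837 higher (34.3%) and 157 lower (18.8%), by the family annotation in the deposited table. Basic leucine zipper genes had 22 of 40 higher and 7 lower, a count that includes ATF4 family members, nuclear receptors of the thyroid-like class 8 of 11 higher and 1 lower, ZBTB genes 19 of 43 higher and 4 lower, and GATA-type zinc finger genes 7 of 10 higher. Homeobox genes had 24 of 59 lower and 8 higher. Tfcp2l1, a pluripotency factor gene, rose from 0.414 ± 0.1199 to 4.89 ± 0.542 FPKM (SD, n = 4; 2.06 ± 0.09), Klf15 from 0.294 ± 0.278 to 3.85 ± 0.616 FPKM (1.92 ± 0.15) and Klf4 from 5.29 ± 0.243 to 21.3 ± 0.892 FPKM (1.82 ± 0.08). Snai2, a repressor of epithelial genes, rose from 32.8 to 91.9 FPKM. Id2, an inhibitor of helix-loop-helix factors, fell from 15.8 to 5.05 FPKM, Jun from 29.8 to 13.1 FPKM and Klf10 from 14.7 to 6.32 FPKM. Tfcp2l1 and Snai2 were picked after their values were seen.

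Of 15 clock genes 10 rose and 2 fell (median 0.56). The clock runs on activation by CLOCK and ARNTL and on repression by PER and CRY proteins. The PER and CRY genes other than Cry1 were higher. Cry2 stood at 2.42, 1.93, 3.07 and 2.43 FPKM in the OA libraries and 6.03, 6.37, 6.52 and 6.44 FPKM in the OOA libraries (1.09 ± 0.09). Per3 stood at 2.82, 2.52, 2.695 and 2.57 FPKM in the OA libraries and 6.25, 5.77, 6.21 and 5.87 FPKM in the OOA libraries (0.94 ± 0.07). Those groups did not overlap. Ciart (1.15 ± 0.10), the output gene Dbp (0.99 ± 0.16), Per1 (0.77), Per2 (0.68), Nr1d1 (0.68) and Nr1d2 (0.56) rose as well. The activators Clock (-0.10 ± 0.06) and Arntl (0.11 ± 0.10) and the repressor Cry1 (0.06 ± 0.07) did not pass, and Bhlhe41 fell (-0.82 ± 0.10). All libraries were taken at 1 time of treatment, so phase was not measured.

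Signalling genes changed in single large steps. Inhba (ENSMUSG00000041324, chromosome 13, 16186436 to 16206206, plus strand), the activin A subunit, stood at 10.1, 10.999, 10.7 and 10.98 FPKM in the OA libraries and 45.4, 43.02, 46.4 and 48.6 FPKM in the OOA libraries (log2 change 2.002 ± 0.05, limma adjusted p = 2.62e-19), with no overlap. Other members of its axis fell, Bmp4 from 86.7 to 40.6 FPKM, the inhibitory Smad6 from 8.19 to 4.38 FPKM and the receptor gene Tgfbr2 from 89.6 to 54.7 FPKM, so that the list of 40 had 14 genes in each direction. In the Notch pathway the ligand gene Jag1 (ENSMUSG00000027276, chromosome 2, 136923376 to 136958564, minus strand) stood at 4.34, 4.36, 3.95 and 4.98 FPKM in the OA libraries and 24.8, 24.3, 25.4 and 25.9 FPKM in the OOA libraries (2.27 ± 0.06), again without overlap. The receptor gene Notch3 rose from 14.9 to 31.003 FPKM and Rbpj, the DNA-binding partner of the cleaved receptor, from 6.61 to 18.4 FPKM. Lfng, a sugar transferase that tunes ligand choice, fell from 12.4 to 3.91 FPKM, and Jag2 (-0.76) and Notch2 (-0.30) fell too. Among the Hes genes, the target gene Hes1 rose by 0.38 and Hes6 fell (-0.53).

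Irs1, the insulin receptor substrate, stood at 26.6, 24.6, 26.7 and 29.8 FPKM in the OA libraries and 8.65, 8.65, 7.81 and 8.66 FPKM in the OOA libraries and fell by 1.56 on the log2 scale (SE 0.07), the groups apart, while the receptor genes Insr (0.60 ± 0.06) and Igf2r (0.79 ± 0.09) rose. The binding protein genes diverged, with Igfbp3 (-0.98 ± 0.06) and Igfbp2 (-0.77 ± 0.04) lower and Igfbp4 (0.88 ± 0.09) and Igfbp5 (0.55 ± 0.03) higher. Wnt pathway genes were more often lower, 14 of 33, than higher, 6. The receptor gene Fzd4 rose from 2.32 ± 0.25995 to 9.25 ± 0.569 FPKM (SD, n = 4), Rspo2 rose by 0.84, and the target gene Axin2 fell by 0.46. Growth-signal feedback genes Errfi1 (from 48.2 to 21.5 FPKM) and Dusp5 (from 7.80004 to 3.07 FPKM) fell, and Spry1 rose (from 1.12 to 3.51 FPKM). Of 25 YAP target genes 11 rose, such as Ccn2 (0.80 ± 0.12) and Amotl1 (0.85 ± 0.03), 4 fell and 10 did not pass (median 0.09). With limma-voom on recovered reads 10 of the YAP target genes rose and 6 fell.

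**Figure D4:**
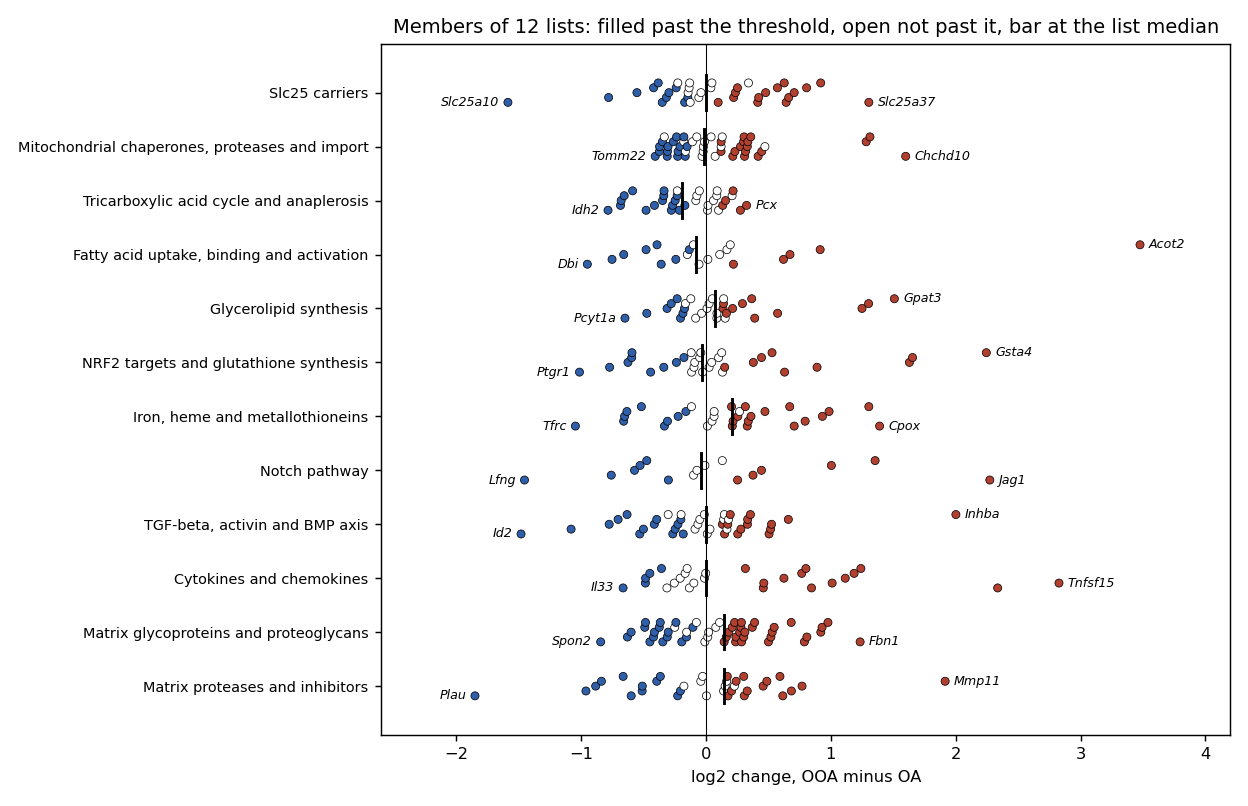
Log2 change (OOA minus OA) of every measured member of 12 lists, filled red where it rose, blue where it fell and open where it did not pass, with a bar at the list median and the lowest and highest member named. List medians lie close to 0 while single members lie far out, such as Acot2 at 3.48, Tnfsf15 at 2.83 and Plau at -1.85.

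Genes of secreted factors differed from list to list. Of 27 cytokine and chemokine genes 13 rose and 5 fell (median 0.00; 0.15 with an FPKM minimum of 5), and of 24 NF-kB genes 13 rose and 4 fell. Il6 stood at 9.402, 10.8, 8.63 and 8.33 FPKM in the OA libraries and 61.5, 60.5, 43.5 and 40.8 FPKM in the OOA libraries (2.34 ± 0.17). The OOA libraries were all higher and split into a higher and a lower pair. Tnfsf15, a ligand of death receptor 3, rose from 0.656 ± 0.121 to 10.8 ± 1.18 FPKM (SD, n = 4), the neutrophil attractant Cxcl1 from 268 to 581 FPKM, Ccl5 from 34.1 to 81.4 FPKM and Csf1 from 113 to 199 FPKM. Il33 fell from 132 to 83.1 FPKM, Cxcl12 from 59.3 to 42.3 FPKM and Ccl2 from 134 to 104 FPKM. Among NF-kB genes Relb (0.73) and Tnfaip2 (1.26 ± 0.05) rose, and Nfkb1 (-0.23) fell. Of 24 acute phase and complement genes 8 rose and 7 fell, near the shares of all genes. The acute phase gene Ptx3 rose from 44.4 to 137 FPKM, Lcn2 from 14.3 to 39.1 FPKM and Socs2 from 7.52 to 23.5 FPKM, whereas Saa3 (-0.04 ± 0.12) did not pass and Hp (-0.64 ± 0.11) and Orm1 (-0.81 ± 0.10) fell. Interferon-stimulated genes had 7 of 30 higher, 4 without OOA replicate 2, and 10 lower, Irf1 among the latter (-0.71 ± 0.11).

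Prostaglandin genes had 5 of 10 members higher and 2 lower. Pla2g4a, which releases arachidonic acid from membranes, stood at 5.53, 5.41, 5.11 and 5.299 FPKM in the OA libraries and 19.7, 20.6, 21.3 and 18.8 FPKM in the OOA libraries (1.73 ± 0.05), with no overlap. The cyclooxygenase genes Ptgs2 and Ptgs1, for the next step, rose from 9.705 to 97.2 FPKM and 35.95 to 50.8 FPKM. Of 31 growth factor and hormone genes 12 rose and 10 fell. In that list the peptide genes Adm2 (0.726 ± 0.177 to 10.3 ± 1.45 FPKM; SD, n = 4) and Angptl6 (0.544 ± 0.301 to 8.39 ± 0.0874 FPKM) rose from low levels and Artn by 1.46. Angptl6 overlaps Shfl on the opposite strand, which averaged 3.87 and 6.91 FPKM. In the same list the opioid precursor Penk (-0.99) fell.

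Matrix genes moved in both directions, 26 of 51 glycoprotein and proteoglycan genes higher and 17 lower. Of 20 collagen genes 12 rose and 5 fell. The basement membrane chains Col4a1 (0.53 ± 0.04) and Col4a2 (0.61 ± 0.04) and Col3a1 (from 706 to 881 FPKM) were higher and Col6a3 (-0.55 ± 0.10) lower, while Col1a2 did not pass (0.03 ± 0.03). Fibronectin, Fn1 (ENSMUSG00000026193, chromosome 1, 71624679 to 71692359, minus strand), stood at 721, 659, 610.2 and 681 FPKM in the OA libraries and 1168, 1284, 1409 and 1410.3 FPKM in the OOA libraries (0.98 ± 0.11), and fibrillin 1, Fbn1, at 24.9, 21.7, 20.01 and 23.3 FPKM in the OA libraries and 48.6, 51.4, 57.4 and 59.5 FPKM in the OOA libraries (1.24 ± 0.12). Neither showed overlap. Laminin chains Lamb1 (0.92) and Lama5 (0.93) and perlecan, Hspg2 (0.79), rose, and thrombospondin genes Thbs1 (-0.41) and Thbs2 (-0.60) fell. Among proteases Mmp11 rose from 23.1 ± 1.31 to 90.02 ± 5.47 FPKM (SD, n = 4; 1.92 ± 0.06), and Plau, described above, Adam12 (-0.96 ± 0.06) and the inhibitor Timp2 (-0.36) fell. Of 28 integrin, cadherin and focal adhesion genes 9 rose and 11 fell (median -0.03), not far from the shares of all genes. Within it N-cadherin, Cdh2, fell from 20.2 to 9.86 FPKM and M-cadherin, Cdh15, from 25.5 to 14.6 FPKM. Guidance genes were more often lower, 19 of 43, than higher, 7, with Sema7a (-1.54 ± 0.09) and Ntn1 (-1.43 ± 0.06) lower and Sema3c (1.32 ± 0.07) higher.

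Muscle genes fell more often than they rose. Of 30 myogenic regulators and fusion genes 15 fell and 7 rose. The falls included Myod1 (-0.58 ± 0.05), Myog (-0.77 ± 0.18) and the fusion gene Mymk (from 9.57 to 3.55 FPKM), and of 28 measured sarcomere genes 21 fell and 2 rose (median -0.76; -1.18 with limma-voom on recovered reads). Myf5 (ENSMUSG00000000435, chromosome 10, 107318769 to 107321995, minus strand), the regulator that marks early, undifferentiated myoblasts, stood at 4.73, 4.62, 5.19 and 4.505 FPKM in the OA libraries and 18.5, 18.3, 19.7 and 18.1 FPKM in the OOA libraries. It rose by 1.77 ± 0.09 (limma adjusted p = 7.39e-14), and no OA library reached the OOA range. Mylpf (-1.47 ± 0.22) and Acta1 (-1.25 ± 0.13) fell among filament genes. The summed FPKM of the 55 listed sarcomere genes ran from 208 to 275 in OA and from 142 to 157 in OOA. Of these 55 genes 30 had a mean below 1 FPKM in OA and 40 in OOA. Some of the 28 measured thus passed the filter through groups other than OOA, which favours a fall. With an FPKM minimum of 5, 12 sarcomere genes were measured, of which 9 fell and 1 rose.

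Tubulin genes, for microtubules, were among the lists with the lowest medians. Of 16 tubulin and tubulin-folding genes 11 fell and 1 rose (median -0.77). Tubb4b stood at 164, 162, 152 and 165 FPKM in the OA libraries and 57.3, 58.7, 57.2 and 59.8 FPKM in the OOA libraries (-1.45 ± 0.04), and Tuba1a at 291, 283, 259.9 and 293 FPKM in the OA libraries and 124, 105, 109 and 112 FPKM in the OOA libraries (-1.32 ± 0.05). For both, the highest OOA library was well under the lowest OA library. Tubulin genes resemble each other closely, so the split among them is less certain than their sum, which ran from 1101 to 1167 FPKM in OA and from 546 to 569 FPKM in OOA over the 20 listed genes. Actin and its regulators had 20 of 39 lower, Actb from 978 to 745 FPKM, and 11 higher, with filamin C, Flnc, from 27.6 to 59.4 FPKM and Pdlim5 from 13.004 to 27.2 FPKM.

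Most markers of other cell types were below the filter, and their part in the results was not tested. The 22 osteoblast and chondrocyte markers, 15 of them below the filter, summed to 674 to 751 FPKM in OA and to 1105 to 1180 FPKM in OOA, and most of that was osteopontin, Spp1, which myoblasts also express (from 686 to 1106 FPKM). Of the 7 measured 3 rose, Runx2 among them (0.71), and 2 fell, Sox9 among them (-1.03). Summed FPKM of the 40 epithelial markers ran from 36.2 to 39.2 in OA and from 19.1 to 22.9 in OOA, with 13 of them at 0 in every library of both groups. Of the 8 epithelial markers measured 5 fell, Krt80 among them (-0.99), 1 rose (1.14) and 2 did not pass. With an FPKM minimum of 5 these were 2 lower and 1 higher of 4. The skin gene Cdsn, which is not among those markers, had the largest log2 change of the rises outside the ATF4 and cell cycle lists and went from 1.71 ± 0.264 to 97.9 ± 4.82 FPKM (SD, n = 4; 5.19), more than the whole list summed to in OOA. The 20 leukocyte markers summed to 28.4 to 31.3 FPKM in OA and to 102.5 to 110.5 FPKM in OOA. Most of that was Cd74, described above, while Cd14 (0.04 ± 0.09), Cd68 (-0.24 ± 0.20) and Lyz2 (0.13 ± 0.15) did not pass and 8 of the 20 were at 0 in every OOA library. The 41 neuronal markers summed to 20.5 to 22.7 FPKM in OA and to 27.3 to 31.9 FPKM in OOA, 14 of them at 0 in every OOA library. Of the 6 neuronal markers above the filter 4 rose, including the ion channel gene P2rx3 (3.61), and 2 fell, including Tubb3 (-1.18). With an FPKM minimum of 5 these were 2 and 2 of 4. Of the 41 markers 38 had a mean below 1 FPKM in OA and 34 in OOA. Some of the 6 thus passed the filter through groups other than OA, which favours a rise. P2rx3 overlaps Ssrp1 on the opposite strand, which averaged 84.7 and 74.8 FPKM. The 16 adipocyte markers summed to 72.7 to 80.5 FPKM in OA and to 31.5 to 41.4 FPKM in OOA, with Car3 lower (from 55.9 to 16.2 FPKM) and Pparg higher (0.85 ± 0.16).

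Of 593 long noncoding RNAs tested 121 rose (20.4%) and 78 fell (13.2%), both shares below those of all genes. The host genes of small nucleolar RNAs, whose introns release guides for ribosomal RNA modification, held the 3 largest rises among named ones. Snhg12 stood at 4.14, 4.27, 4.36 and 4.08 FPKM in the OA libraries and 19.02, 19.9, 18.2 and 19.8 FPKM in the OOA libraries (1.96 ± 0.10), Snhg5 at 10.2, 11.2, 12.4 and 9.96 FPKM in the OA libraries and 34.4, 31.9, 34.1 and 28.1 FPKM in the OOA libraries (1.47 ± 0.10) and Zfas1 at 13.8, 13.7, 16.3 and 13.5 FPKM in the OA libraries and 32.2, 37.5, 35.3 and 38.1 FPKM in the OOA libraries (1.26 ± 0.08). None of them had overlapping groups. Zfas1 overlaps Znfx1 on the opposite strand. The 3 largest falls were in Brip1os (-1.38 ± 0.04), Eldr (-0.64 ± 0.13) and Morrbid (-0.62 ± 0.07). Brip1os overlaps Med13 and Ints2 on the opposite strand.

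Measured by FPKM lost rather than by ratio, other abundant genes led the falls. Galectin 1, Lgals1, stood at 2389, 2429, 2371 and 2067 FPKM in the OA libraries and 1425, 1636, 1466 and 1527 FPKM in the OOA libraries (-0.61 ± 0.07) and the calcium-binding protein gene S100a11 at 1071, 1092, 994 and 959 FPKM in the OA libraries and 702, 657, 646 and 609 FPKM in the OOA libraries (-0.65 ± 0.04). Prothymosin, Ptma, fell from 755 to 459.9 FPKM and phosphoglycerate kinase, Pgk1, from 607 to 329.5 FPKM. The groups did not overlap for any of these. Among gains, osteopontin, Spp1, rose from 686 ± 36.7 to 1106 ± 33.2 FPKM (SD, n = 4; 0.69 ± 0.05) and the antiangiogenic serpin gene Serpinf1 from 299.7 ± 11.9 to 559 ± 23.7 FPKM (0.90 ± 0.04).

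Levels in the remaining groups are given as a description, with no test. Medians of log2(FPKM + 1) minus the OA mean were taken over each list in each library. For ribosome biogenesis they ran from 0.25 to 0.32 in OOA, from -0.20 to -0.13 in BSA, from -0.24 to -0.15 in Dox_OA and from -0.37 to -0.33 in Dox_OOA. The libraries with oligomycin lay above their oleic acid controls in water and below them with doxycycline. For cytosolic ribosomal proteins OOA ran from 0.25 to 0.32, Dox_OA from -0.10 to 0.05 and Dox_OOA from -0.08 to 0.09. Endoplasmic reticulum genes ran from -0.33 to -0.25 in OOA, from -0.15 to -0.11 in Dox_OA and from -0.35 to -0.22 in Dox_OOA. Proteasome genes ran from -0.22 to -0.12 in OOA, from -0.21 to -0.12 in Dox_OA and from -0.38 to -0.32 in Dox_OOA. For both lists the oligomycin libraries lay below their own oleic acid controls in each arm. For p53 targets OOA ran from 0.53 to 0.62, Dox_OA from -0.06 to 0.00 and Dox_OOA from 0.14 to 0.31, and for tubulins OOA ran from -0.84 to -0.63, Dox_OA from -0.17 to -0.10 and Dox_OOA from -0.34 to -0.20. Doxycycline itself and the UCP1 it induces cannot be told apart in these differences between the arms. Single genes also differed: Acot2 averaged 3.58 FPKM in BSA, 3.86 in Dox_OA and 16.6 in Dox_OOA, and Cyb5r1 9.77 FPKM in BSA, 10.01 in Dox_OA and 31.4 in Dox_OOA.

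**Figure D5:**
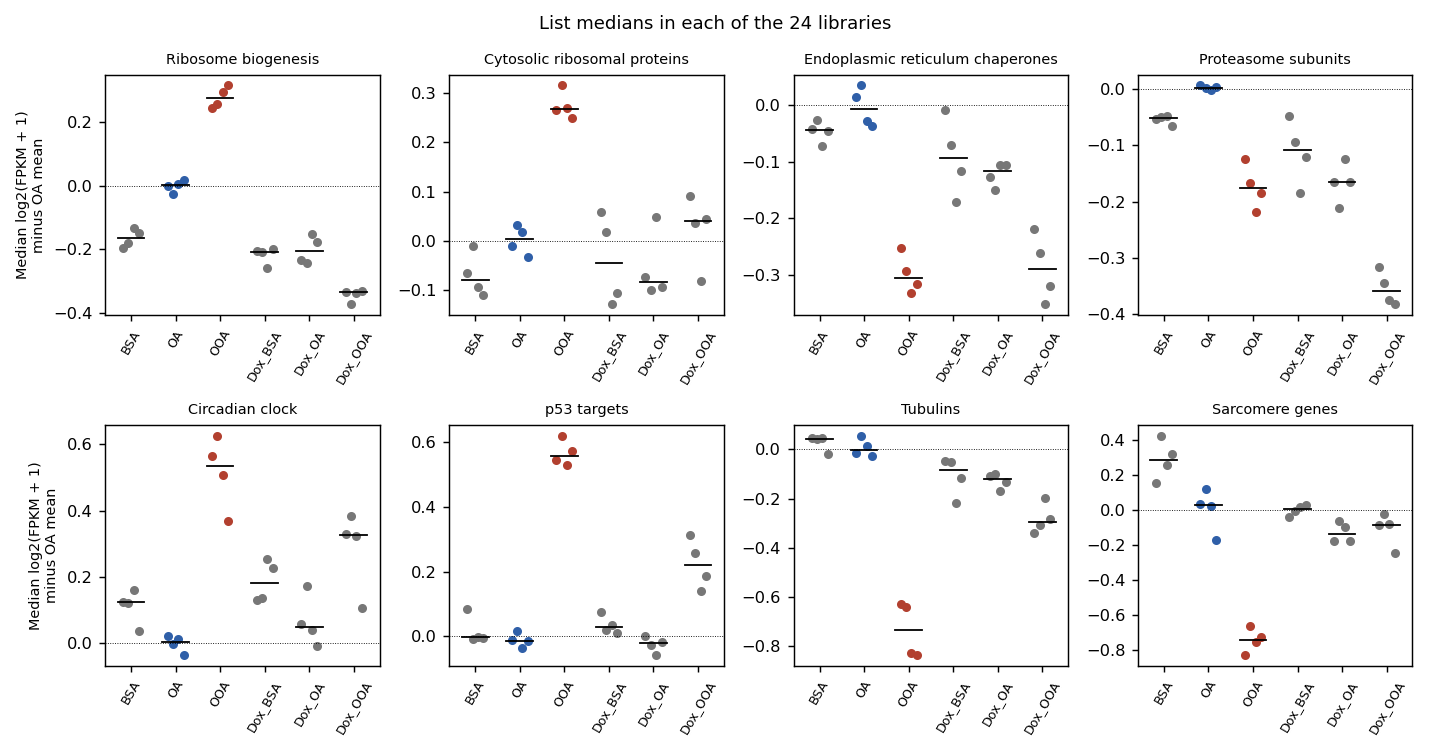
Median of log2(FPKM + 1) minus the OA mean over the measured members of 8 lists, in each library of the 6 groups (points), with a bar at the median of 4 libraries. OA is blue, OOA red and the other groups grey. Ribosome biogenesis lies between 0.25 and 0.32 in OOA and between -0.37 and -0.33 in Dox_OOA.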

How the data were processed

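RNA was sequenced from 24 libraries in 6 groups of 4, taken from the sample titles. The authors deposited FPKM values for 56748 Ensembl genes with gene lengths, coordinates and transcription factor families, per the file headers. GRCm39 (mm39) is the build and STAR, HISAT2, STAR-Fusion, HTSeq, edgeR and DESeq2 are tools named, with no version or role, by the submitters' processing notes. Multiplied by gene length and scaled so that a single read counts as 1, the FPKM values came within 0.01 of a whole number in 100% of cases. This gave the read totals, and limma-voom, run on these reads as an alternative, called 7385 genes.

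limma 3.58.1 (R 4.3.3) was run on log2(FPKM + 1) (lmFit with a mean per group over all 24 libraries, 18 residual degrees of freedom, eBayes with trend and robust), contrast OOA minus OA, two-sided, with Benjamini-Hochberg adjustment over 12904 genes and a threshold of 0.05. The procedure was also run on simulated data with far fewer changed genes than here, so that run does not measure error rates in these data. List members and rules were chosen with earlier results of these data known, and the 67 lists have no test of their own. Members of the ATF4 and cell cycle lists were taken out of the other lists. The naming rule covered the 20 largest rises and falls that did not overlap, 3 long noncoding RNAs per direction, the 10 largest gains and losses in FPKM and up to 5 members of each list by p. Which genes the text describes was chosen after their values were seen. Of 325 genes named, 112 lie outside that rule. Alternatives were a fixed sum per library, a pseudocount of 0.1, no filter, an FPKM minimum of 5, the 8 compared libraries alone, a replicate block, limma-voom and leaving out each library. Coordinates of genes are the deposited ones (GRCm39). Promoter sequences are RefSeq's on GRCm38.p6, and no coordinates were converted. No column of library values was left without a sample.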

Additional observations from a re-analysis of the deposited data

Results flagged for a closer look

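Some genes and lists moved in opposite directions on adding oligomycin in the 2 arms: no OOA library overlapped the OA range, no Dox_OOA library overlapped the Dox_OA range, and the shifts had opposite signs. This difference was not tested. Among the genes named in the text 11 did so, and the other genes were not examined for it. One was the chaperone gene Hspa5, higher in water and lower with doxycycline (± is SD, n = 4). Acadm went from 51.3 to 36.4 FPKM in water and from 53.1 ± 2.35 to 59.1 ± 1.56 FPKM with doxycycline. Acsl3 went from 34.4 to 24.5 FPKM in water and from 33.04 ± 1.33 to 44.8 ± 2.51 FPKM with doxycycline. Car3 went from 55.9 to 16.2 FPKM in water and from 79.9 ± 5.01 to 111 ± 8.73 FPKM with doxycycline. Cpt1a went from 53.7 to 42.3 FPKM in water and from 54.7 ± 1.45 to 61.3 ± 0.849 FPKM with doxycycline. Cxcl12 went from 59.3 to 42.3 FPKM in water and from 61.1 ± 3.02 to 68.9 ± 3.903 FPKM with doxycycline. Hspa5 went from 238 to 365 FPKM in water and from 199 ± 7.88 to 163 ± 6.87 FPKM with doxycycline. Hyou1 went from 31.1 to 33.5 FPKM in water and from 27.1 ± 0.817 to 21.5 ± 0.807 FPKM with doxycycline. Ncl went from 102 to 128 FPKM in water and from 83.2 ± 4.48 to 73.1 ± 1.93 FPKM with doxycycline. Polr1a went from 6.67 to 9.02 FPKM in water and from 6.38 ± 0.233 to 5.64 ± 0.412 FPKM with doxycycline. Spp1 went from 686 to 1106 FPKM in water and from 603 ± 22.98 to 529 ± 23.7 FPKM with doxycycline. Thbs1 went from 764 to 574 FPKM in water and from 854 ± 40.9 to 1042 ± 65.3 FPKM with doxycycline. For genes of mitochondrial DNA and transcript maintenance the median log2 change in water was 0.11, and relative to the OA mean the doxycycline libraries ran from -0.08 to -0.07 in Dox_OA and from -0.18 to -0.09 in Dox_OOA. For ribosome biogenesis the median log2 change in water was 0.28, and relative to the OA mean the doxycycline libraries ran from -0.24 to -0.15 in Dox_OA and from -0.37 to -0.33 in Dox_OOA. For actin genes and SRF targets the median log2 change in water was -0.20, and relative to the OA mean the doxycycline libraries ran from 0.02 to 0.10 in Dox_OA and from 0.13 to 0.22 in Dox_OOA.

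Single libraries stood apart from the other 3 of their group for 36 of 650 gene and group pairs, and chance alone flags about 1 in 20 groups. Each value is set against the range of the other 3 libraries. In OA replicate 1 these were Jag2 at 3.38 FPKM against 3.98 to 4.04, Klf15 at 0.708 FPKM against 0.115 to 0.189, Slc25a39 at 49.3 FPKM against 46.9 to 47.1, Socs2 at 7.99 FPKM against 7.33 to 7.43 and Txnrd3 at 1.598 FPKM against 2.66 to 2.82. In OA replicate 2 these were Avil at 0.143 FPKM against 0.0473 to 0.0501, Bnip3l at 35.1 FPKM against 32.8 to 32.96, Dbp at 3.81 FPKM against 2.99 to 3.09 and Syvn1 at 15.4 FPKM against 13.2 to 13.4. In OA replicate 3 these were Actb at 898 FPKM against 998 to 1014, Csf1 at 109 FPKM against 115 to 115, Med13 at 12.5 FPKM against 14.6 to 14.99, Pdia3 at 261 FPKM against 271 to 272, Tfcp2l1 at 0.592 FPKM against 0.331 to 0.372 and Zfas1 at 16.3 FPKM against 13.5 to 13.8. In OA replicate 4 these were Hspe1 at 77.6 FPKM against 88.8 to 90.3, Lgals1 at 2067 FPKM against 2371 to 2429, Myh3 at 2.57 FPKM against 3.18 to 3.24, Rpl4 at 623 FPKM against 579.6 to 585 and Runx2 at 9.401 FPKM against 8.63 to 8.71. In OOA replicate 1 these were Cdh2 at 10.8 FPKM against 9.48 to 9.66, Dbi at 15.01 FPKM against 12.6 to 12.7, Eif3e at 65.5 FPKM against 62.1 to 62.4, Klf15 at 4.77 FPKM against 3.47 to 3.67, Pdhb at 27.7 FPKM against 24.9 to 25.3 and Pdk4 at 36.3 FPKM against 29.9 to 30.8. In OOA replicate 2 these were Lzts2 at 48.5 FPKM against 41.1 to 41.9 and Sdhd at 49.6 FPKM against 43.9 to 44.4. In OOA replicate 3 these were Csnk1d at 38.7 FPKM against 40.1 to 40.3, Hsf1 at 16.6 FPKM against 15.4 to 15.5, Irs1 at 7.81 FPKM against 8.65 to 8.66 and Tkt at 14.01 FPKM against 14.5 to 14.5. In OOA replicate 4 these were Creld2 at 18.7 FPKM against 19.4 to 19.4, Myod1 at 24.1 FPKM against 25.8 to 26.1, Tfe3 at 11.2 FPKM against 12.1 to 12.2 and Tfeb at 1.49 FPKM against 2.07 to 2.11.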

How the results depend on the processing

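The count of changed genes (7337) stayed within 5707 and 7542 over the fixed sum, pseudocount, filter, library and test alternatives, and between 6909 and 7151 when single libraries were left out. No gene called in both fits changed sign. The share of calls that were higher was 50.1%, against 45.6% with limma-voom on recovered reads, where the median of all genes moved to -0.03. The count changed at least 2-fold, 744, became 1190 with a pseudocount of 0.1, which by construction widens the changes of low genes, and 1256 with limma-voom, for which the cause was not tested. Of 4848 values of single genes under the alternatives 4821 kept direction and call, 21 lost the call (Atf6b, Hyou1 and Nop10) and 6 gained it (Canx, Clock, Hspd1 and Nqo1), and none reversed. Of 990 list medians under the alternatives 919 moved by no more than 1 SD over the OOA libraries; printed medians that moved by over 1.5 times and by at least 0.1 are given beside their lists. With an FPKM minimum of 5, which tests 8556 genes, sarcomere falls became 9 of 12 and guidance falls 12 of 28.

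Replicate numbers were shared between groups, but deviations of same-numbered libraries correlated at only 0.07, 0.08, 0.06 and 0.03. Libraries 3 and 4 correlated best with another number, so the numbers were not taken as a pairing. Between OA and OOA, correlations within replicates 1 and 2 or within 3 and 4 ran from 0.03 to 0.09. Those across these pairs ran from -0.15 to 0.02. The labels give no batch, and whether the pairs mark a batch shared by both groups was not tested. With the replicate number as a block 7517 genes were called, and 5 endoplasmic reticulum to Golgi genes and 5 collagen modification genes rose.

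Depth was known only through recovered reads, and genes under about 1 FPKM were not tested. With 4 libraries per group of unstated origin, it is not known whether the p-values measure any variation between cultures. Reads of gene copies and of overlapping genes on opposite strands could not be separated.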
